A study of Homo sapiens with 4 samples.

Results

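The 10 genes described here are ATF4, the transcription factor at the centre of the integrated stress response, and 9 genes that act with it or are known to respond to stress: ATF3, DDIT3, TRIB3, PPP1R15A, DDIT4, SESN2, CHAC1, CHAC2 and VLDLR. They were chosen by name, as the genes named alone by a probe set (the group of probes on the array that reads 1 transcript region). Where several probe sets name a gene, the one with the highest average signal across the arrays stands for it. The 10 genes were named by 11 probe sets of the 33297 on the array, which name 18417 genes in all, and only ATF4 had more than 1.

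The data are Affymetrix whole-transcript arrays of HT1080 cells, an established human fibrosarcoma line, and the study asked which transcripts change in amount and which change at the endoplasmic reticulum (ER) in hypoxia. The 4 groups were ER-RNA and total RNA from cells kept in hypoxia (1% O2) for 36 h, and ER-RNA and total RNA from control cells kept at 21% O2 for the same time, all in medium with little serum. ER-RNA was extracted from a fraction made with a commercial ER isolation kit. Each group is 1 array loaded with RNA pooled from 5 experiments, so there is no replicate spread and no test between groups, and precision is limited by having a single array for each. Values are log2 signals after RMA, a method that corrects the background, normalizes the arrays and summarizes probes. The array medians were 6.34 in ER-RNA from hypoxia and 6.25 in ER-RNA from control cells, against 7.49 in total RNA from hypoxia and 7.41 in total RNA from control cells, so the fractions do not share a scale and hypoxia was compared with control within each. Of 10 fibroblast and mesenchymal markers, 8 lay above the median of at least 1 array in ER-RNA and 7 in total RNA, with vimentin (VIM) at 13.06 and 12.49 in ER-RNA from hypoxia and control. THY1 and COL5A2 lay below the median on every array. Of 10 measured epithelial, haematopoietic and endothelial markers, 2 passed in ER-RNA (KRT19 and PECAM1) and 1 in total RNA (KRT19).

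In the integrated stress response, kinases that sense ER stress, amino acid shortage, viral RNA or lack of haem phosphorylate the α-subunit of translation factor eIF2. General translation then slows, while the ATF4 mRNA, which carries upstream open reading frames, is translated more. ATF4 protein is a basic leucine zipper (bZIP) factor that pairs with C/EBP and related proteins and switches on genes for amino acid supply, redox balance and, through DDIT3, cell death. Hypoxia is a known trigger of this pathway, mainly through the ER kinase EIF2AK3 (PERK). Arrays measure RNA only, and no protein was analysed here.

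The promoters of all 10 genes were found in the RefSeq table (GRCh38.p14, 250 bases before to 50 after the annotated start) and were searched on both strands for 4 short motifs. TGATGNAA is the C/EBP-ATF composite element that ATF4 dimers bind, TGACGTCA is the cAMP response element bound by CREB and ATF proteins, and ACGTG and GCGTG are the core of the element bound by the hypoxia-inducible factor (HIF). The following stretches of the gene's strand are examples of the matches and not all of them, with the matched bases in capitals.
CHAC1, C/EBP-ATF element read on the opposite strand: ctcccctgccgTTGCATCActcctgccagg
ATF3, C/EBP-ATF element: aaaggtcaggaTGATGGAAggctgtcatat
PPP1R15A, cAMP response element: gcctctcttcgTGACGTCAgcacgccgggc
DDIT4, HIF core: agaacgttgcttACGTGcgcccggagtcca
ATF4, HIF core: gaggagacggtcACGTGgtcgcggcggaag
VLDLR, HIF core: cggctgcccggcGCGTGcaagaggagcgcg
All 6 genes lie on the plus strand, and the stretches are chr15:40953251-40953280 for CHAC1, chr1:212565205-212565234 for ATF3, chr19:48872352-48872381 for PPP1R15A, chr10:72273787-72273816 for DDIT4, chr22:39520466-39520495 for ATF4 and chr9:2621665-2621694 for VLDLR. The CHAC1 match ran from -209 to -202 relative to the start and the ATF3 match from -191 to -184. The match in PPP1R15A lay at -58 to -51.

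Among the 10 promoters, TGATGNAA was present in 2 (ATF3 and CHAC1), and it was present in 3.62% of the 35116 promoters of the table. TGACGTCA was present in 1 of 10 (PPP1R15A), against 1.85% of all promoters. ACGTG was present in 2 of 10 (ATF4 and DDIT4), against 21.4%, and the ATF4 match is a palindrome with the base before it, so that it was found on both strands. GCGTG was present in 7 of 10, against 36.5%, with 6 matches in TRIB3, 5 in VLDLR, 4 in PPP1R15A and 3 in DDIT4, and 1 each in ATF4, DDIT3 and CHAC1. SESN2 and CHAC2 held none of the 4 motifs in this window. A match is a description of letters in the window, and binding was not measured.

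Hypoxia did not move the 10 genes in 1 direction. In ER-RNA, the very low density lipoprotein receptor VLDLR and the phosphatase subunit PPP1R15A rose, and the glutathione-degrading enzymes CHAC1 and CHAC2 fell. In total RNA, VLDLR rose and CHAC1 fell. ATF4 itself, ATF3, DDIT3, TRIB3, DDIT4 and SESN2 were called in neither fraction. A call here needs a fold change over 1.4 and a z-score over 3, where z is the log2 fold change over a fitted SD. For each probe set that passed the expression filter, the SD of its hypoxia and control values was taken. The fitted SD is read from a curve of these SDs against mean signal. It thus follows the typical gap between hypoxia and control at that signal, any effect of hypoxia included, and is not a spread between replicates. As the SD of a pair of values it is smaller than that gap, so z does not count whole gaps.

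All 10 genes passed the expression filter in ER-RNA, where at least 1 array of a pair had to lie above its median, and 8 passed in total RNA. In ER-RNA 2 of the 10 were called up, with 1.55% of all 17581 kept probe sets called up, and 2 were called down, with 7.31% of all called down. In total RNA 1 was called up, with 3.27% of all 17537 kept probe sets called up, and 1 was called down, with 6.39% of all called down. The 10 genes had a median log2 fold change of 0.28 in ER-RNA and of 0.20 in total RNA, against 0.06 in ER-RNA and 0.03 in total RNA over all 18417 genes, and -0.04 in ER-RNA and -0.06 in total RNA over those that passed the filter. In ER-RNA 7 of the 10 were higher in hypoxia, beside 10180 of all 18417 genes, and in total RNA 6 of the 10, beside 9786 of all. The direction was the same in both fractions for 9 of the 10, SESN2 being the exception.

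**Figure D1:**
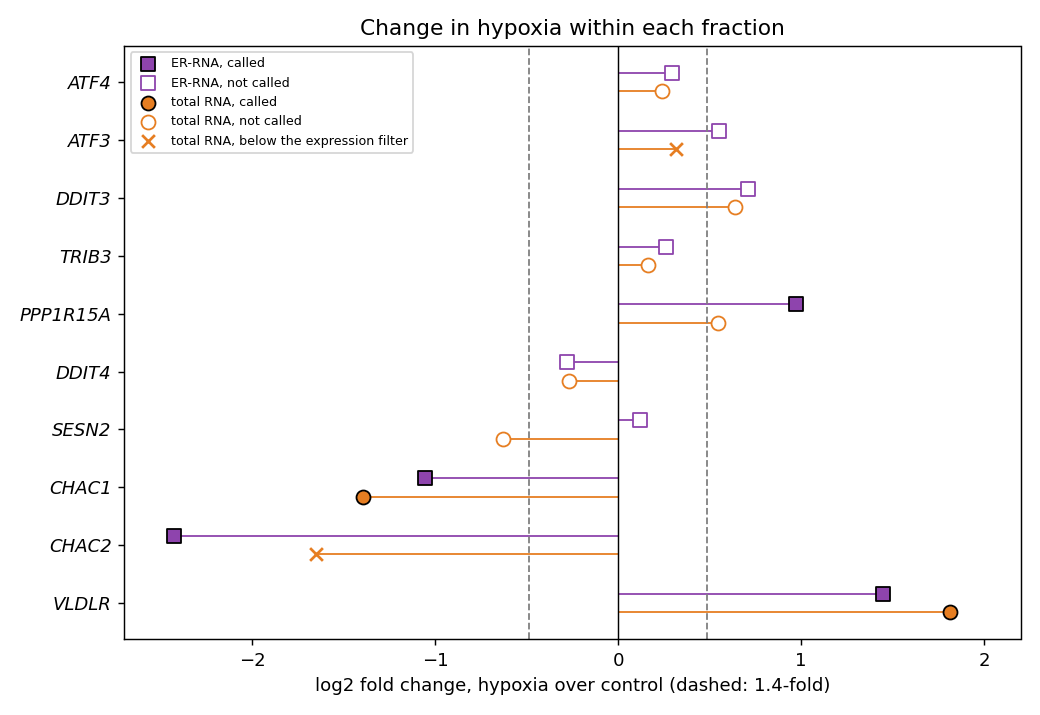
Log2 fold change (hypoxia over control) of each of the 10 genes in ER-RNA (squares) and total RNA (circles, or crosses below the expression filter), with filled symbols for called changes and dashed lines at a fold change of 1.4. VLDLR lies farthest to the right at 1.45 in ER-RNA and 1.81 in total RNA, and CHAC2 and CHAC1 lie farthest to the left.

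The bZIP factors ATF4, ATF3 and DDIT3 were all somewhat higher in hypoxia in both fractions, with no call among them. ATF4 had log2 signals of 11.12 in hypoxia and 10.83 in control in ER-RNA, and 11.09 in hypoxia and 10.85 in control in total RNA. Hypoxia was 1.22-fold control in ER-RNA (log2 0.29, z = 1.00) and 1.18-fold control in total RNA (log2 0.24, z = 0.89). ATF4 was thus far above the array medians in all 4 groups, by 4.78 and 4.57 in ER-RNA from hypoxia and control and by 3.61 and 3.44 in total RNA from hypoxia and control. Translation of the ATF4 mRNA, the step at which eIF2 phosphorylation is known to act, was not analysed here.

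The other ATF4 probe set gave a different picture of the ER fraction. It read 8.44 in hypoxia and 8.29 in control in ER-RNA, and 11.21 in hypoxia and 10.72 in control in total RNA. In total RNA its log2 fold change was 0.49, a 1.41-fold difference with a z-score of 1.82, and in ER-RNA it was 0.15. Its ER-RNA signal minus its total RNA signal was -2.77 in hypoxia and -2.43 in control, whereas these differences were 0.03 and -0.03 for the probe set used. How much ATF4 mRNA the ER fraction held relative to total RNA therefore depends on the probe set. The absence of a call by fold and z-score together in either fraction does not.

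ATF3, a repressor and activator of stress genes that is itself induced by ATF4, had log2 signals of 6.99 in hypoxia and 6.44 in control in ER-RNA, and 7.30 in hypoxia and 6.98 in control in total RNA. The ER-RNA difference of 0.55 is a 1.46-fold difference with a z-score of 2.27, which is past the fold and short of the z-score. In total RNA both arrays lay below their medians, so no call could be made for the difference of 0.32. ATF3 is a dim probe set, as are most of the 10 epithelial, haematopoietic and endothelial markers. Those markers had log2 fold changes of -0.11 to 0.43 in ER-RNA (median 0.30, 8 higher and 1 lower) and of -0.59 to 0.37 in total RNA (median 0.05). Their part in the ATF3 difference was not tested.

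DDIT3, which encodes the death-promoting factor CHOP, had the largest log2 fold change of the 3 factors in both fractions. DDIT3 gave log2 signals of 9.98 in hypoxia and 9.27 in control in ER-RNA, and 9.09 in hypoxia and 8.45 in control in total RNA. Hypoxia was 1.63-fold control in ER-RNA (log2 0.71, z = 2.18) and 1.56-fold control in total RNA (log2 0.64, z = 2.44). Both differences were past the fold and short of the z-score, and the difference between the fractions was 0.07.

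**Figure D2:**
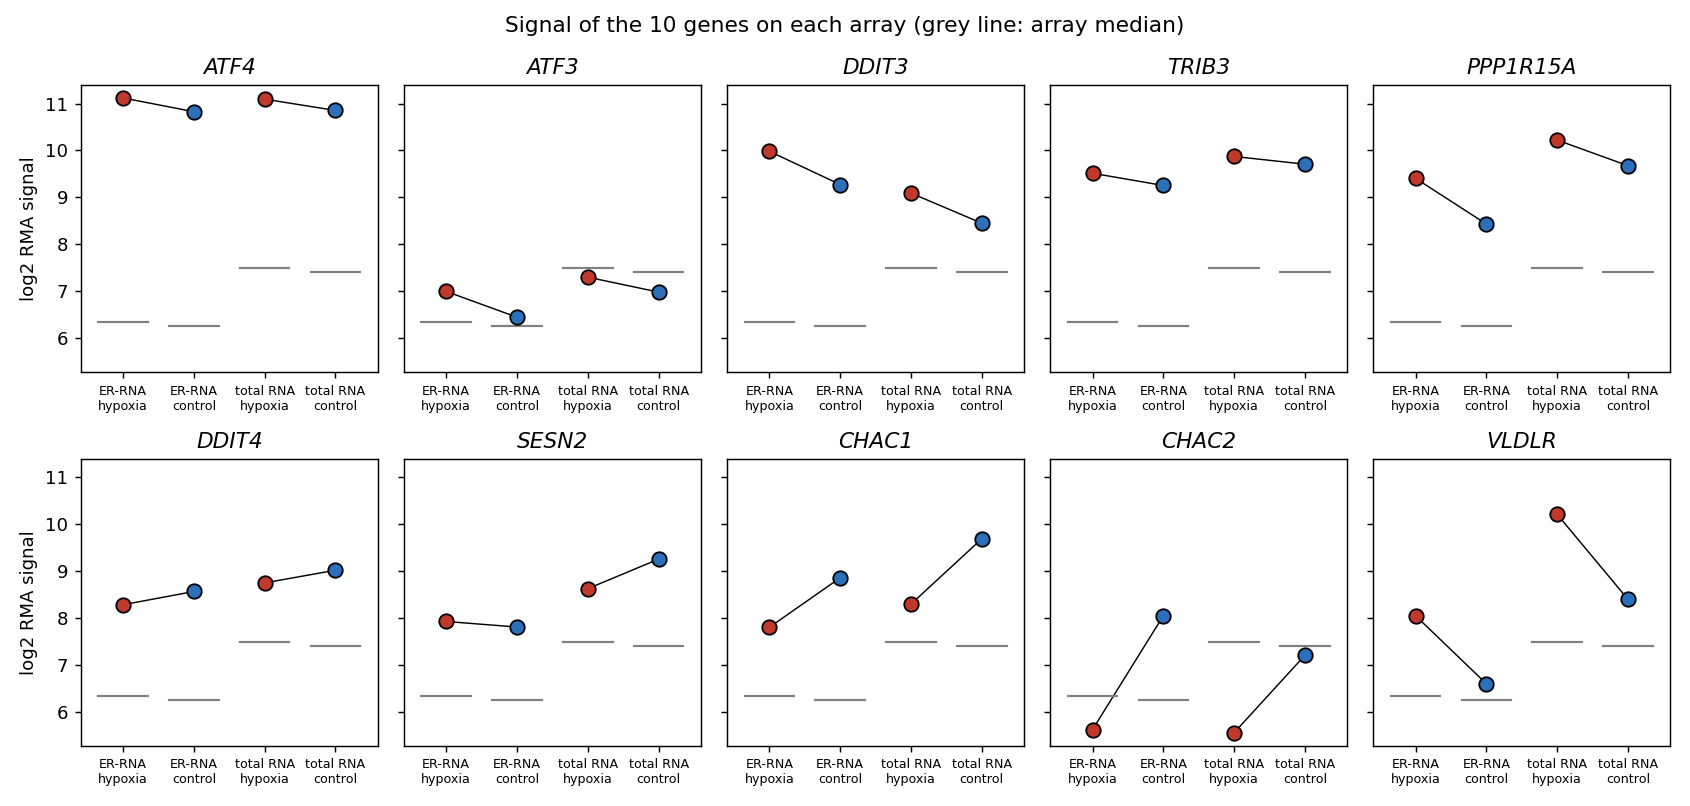
Log2 RMA signal of each gene on the 4 arrays, with ER-RNA on the left and total RNA on the right of each panel, hypoxia in red and control in blue, and the array median as a grey line. ATF4 lies near 11 in every group, while CHAC2 lies below the array median in hypoxia in both fractions, with 5.62 in ER-RNA and 5.55 in total RNA.

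The feedback inhibitors TRIB3 and PPP1R15A act back on the pathway, and they differed in response. PPP1R15A (GADD34) directs protein phosphatase 1 to eIF2 and so restores translation. It had log2 signals of 9.40 in hypoxia and 8.43 in control in ER-RNA, and 10.22 in hypoxia and 9.67 in control in total RNA. It rose 1.97-fold in ER-RNA (log2 0.98), with a z-score of 3.05 that lies just past the threshold. That call was lost when each array was centred on its median, when the curve was fitted to 1-gene probe sets only, when the SD was taken as a scaled median absolute deviation (MAD) in bins of the mean, and with a fold threshold of 2. The MAD was taken of the hypoxia minus control differences, a larger scale than the SD of a pair, so that setting is stricter. In total RNA the difference was 1.46-fold (log2 0.55, z = 1.94) and was not called. The larger fold change at the ER, by 0.43 on the log2 scale, lay within the middle 95% of that difference over all probe sets.

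TRIB3, a pseudokinase that binds ATF4 and the kinase AKT, is a known ATF4 target. Its log2 signals were 9.51 in hypoxia and 9.25 in control in ER-RNA, and 9.87 in hypoxia and 9.71 in control in total RNA. The log2 fold changes of 0.26 in ER-RNA (z = 0.80) and 0.16 in total RNA (z = 0.59) were under 1.4-fold in both fractions.

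DDIT4 and SESN2 restrain mTORC1, the kinase complex that promotes growth and translation, and neither was called. DDIT4 (REDD1) acts through the TSC complex and is known as a target of HIF as well as of ATF4. Signals of DDIT4 on the log2 scale were 8.28 in hypoxia and 8.56 in control in ER-RNA, and 8.75 in hypoxia and 9.02 in control in total RNA. The log2 fold changes were -0.28 in ER-RNA and -0.27 in total RNA, so that hypoxia gave 0.822 of the control signal in ER-RNA and 0.829 in total RNA. DDIT4 was thus slightly lower in both fractions, and with a difference of -0.01 between them it was the gene of the 10 whose fractions lay closest together.

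SESN2 binds the GATOR2 complex as a leucine sensor and is a known target of both ATF4 and p53. It had log2 signals of 7.92 in hypoxia and 7.81 in control in ER-RNA, and 8.62 in hypoxia and 9.25 in control in total RNA. Hypoxia minus control was 0.12 on the log2 scale in ER-RNA (z = 0.42) and -0.63 in total RNA (z = -2.36), where hypoxia gave 0.646 of the control signal. Neither passed the call rule. SESN2 was the only gene of the 10 with opposite directions in the fractions, and its difference of 0.75 between the log2 fold changes lay above the middle 95% of that difference over all 15903 probe sets kept in both fractions, which ran from -0.73 to 0.62. That difference was not tested, since there is 1 array per group.

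CHAC1 and CHAC2 break down glutathione, the main thiol antioxidant of the cell, and both had lower signals in hypoxia in both fractions. CHAC1, a γ-glutamylcyclotransferase that is a known target of ATF4 and DDIT3, had log2 signals of 7.80 in hypoxia and 8.86 in control in ER-RNA, and 8.29 in hypoxia and 9.69 in control in total RNA. It fell to 0.481 of control in ER-RNA (log2 -1.06, z = -3.47) and to 0.381 of control in total RNA (log2 -1.39, z = -5.19). Both calls were lost when the SD was taken as the MAD, which is on a larger scale and so makes the rule stricter. In pooled cells, a lower signal from less RNA per cell and one from fewer cells that express a gene cannot be told apart.

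CHAC2, the paralog that acts more slowly on glutathione, had the largest difference of the 10 in ER-RNA. It had log2 signals of 5.62 in hypoxia and 8.05 in control in ER-RNA, and 5.55 in hypoxia and 7.20 in control in total RNA. It fell to 0.186 of control in ER-RNA (log2 -2.43, z = -10.33), a call that was lost under a filter asking for a signal above the median on both arrays, which CHAC2 did not pass. It was lost too when only probe sets above the 75% quantile of an array were kept, which CHAC2 passed, because the fitted SD was then 1.08 instead of 0.23 and z was -2.25. In total RNA it was -1.65, or 0.319 of control, but both arrays lay below their medians (by 1.93 in hypoxia and 0.21 in control) and no call could be made. The hypoxia signal of CHAC2 was thus low in both fractions, at 0.72 below the ER-RNA median.

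VLDLR, which takes up triglyceride-rich lipoproteins and binds reelin, is known in mouse liver as a gene that the PERK-ATF4 branch induces and elsewhere as a gene induced in hypoxia. Its log2 signals were 8.04 in hypoxia and 6.59 in control in ER-RNA, and 10.21 in hypoxia and 8.39 in control in total RNA. VLDLR rose 2.73-fold at the ER (log2 1.45, z = 5.85) and 3.51-fold in total RNA (log2 1.81, z = 6.59), and was the only gene of the 10 called up in both fractions. The ER-RNA call was lost when only probe sets above the 75% quantile of an array were kept, a filter that VLDLR itself passed, because the fitted SD there was 0.61 instead of 0.25 and z was 2.37. Relative to the array medians, its ER-RNA signal lay 1.02 below its total RNA signal in hypoxia and 0.65 below it in control (differences of -1.02 and -0.65).

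The log2 fold change in ER-RNA was below that in total RNA for 3 of the 10 genes, namely CHAC2 (-0.78), VLDLR (-0.36) and DDIT4 (-0.01). It was above for the other 7, from 0.05 for ATF4 to 0.75 for SESN2. Over all probe sets kept in both fractions the median difference was -0.00373. Apart from SESN2 and CHAC2, each gene lay within the middle 95%. CHAC2 and ATF3 (0.23) were not kept in total RNA, so neither is among the probe sets that set this range.

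**Figure D3:**
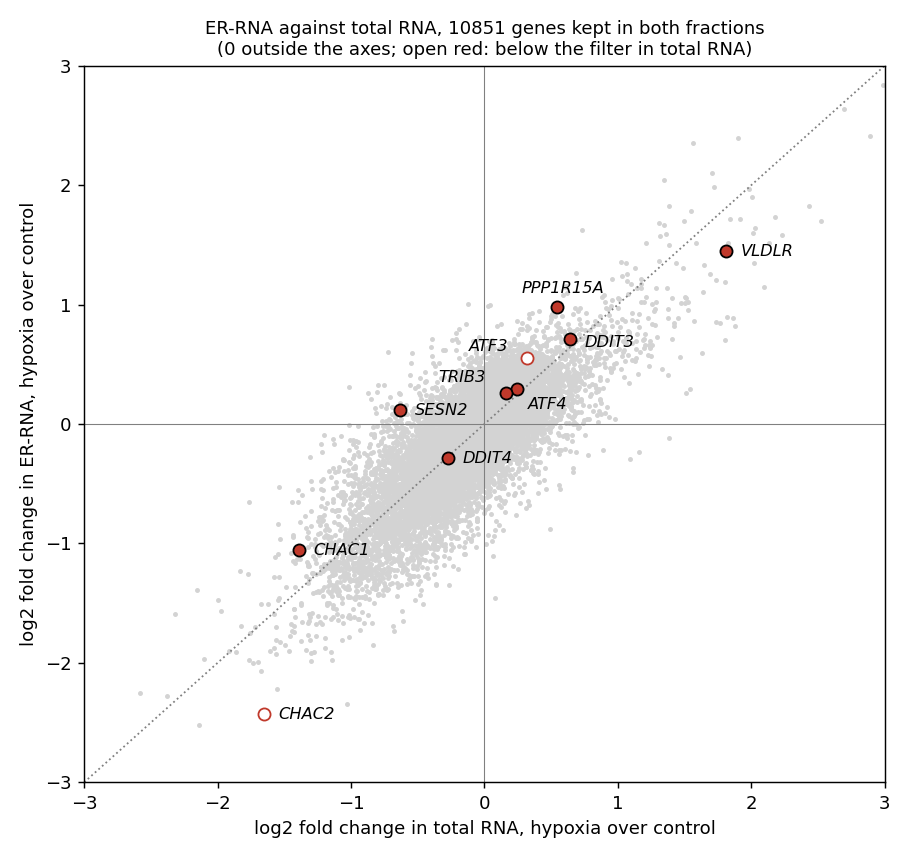
Log2 fold change in ER-RNA (vertical) against total RNA (horizontal) for the 10 genes (red, open where below the filter in total RNA) and all 10851 genes kept in both fractions (grey), with the dotted line at equal values. SESN2 lies above the line at a difference of 0.75, and CHAC2 lies below it at -0.78.

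Set beside the array medians, the ER-RNA signal was above the total RNA signal for most of the 10 genes. This rests on the medians, which were higher in total RNA. Without them the ER-RNA signal was lower in both conditions for ATF3, TRIB3, PPP1R15A, DDIT4, SESN2, CHAC1 and VLDLR. Those differences in hypoxia ran from -0.30 for ATF3 to -2.16 for VLDLR. The ER-RNA signal was higher in both conditions only for DDIT3 and CHAC2. How all genes stand was not counted. Relative to the medians, the difference for DDIT3 was 2.04 in hypoxia and 1.98 in control. For CHAC2, dim in hypoxia in both fractions, it was 1.21 in hypoxia and 2.00 in control, and for ATF4 it was 1.17 in hypoxia and 1.13 in control by the probe set used and -1.62 in hypoxia and -1.28 in control by the other. SESN2 stood at 0.45 in hypoxia and -0.30 in control, and PPP1R15A at 0.33 in hypoxia and -0.09 in control, so that both had values of opposite sign in the conditions. The 11 probe sets differ in how they read the fractions, as ATF4 shows, so these values do not order the genes.

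Upstream of ATF4, the 4 kinases that phosphorylate eIF2 were mostly lower in hypoxia. EIF2AK2 (PKR, which senses double-stranded RNA) fell to 0.557 of control in ER-RNA, and its log2 fold change of -0.49 in total RNA was not called. EIF2AK3 (PERK) had log2 signals of 6.50 in hypoxia and 6.17 in control in ER-RNA, and 8.18 in hypoxia and 8.19 in control in total RNA, which is a difference of 0.33 in ER-RNA and -0.01 in total RNA. EIF2AK1 (HRI) had log2 fold changes of -0.47 in ER-RNA and -0.52 in total RNA, and EIF2AK4 (GCN2) had -0.50 and -0.53.

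Of the 8 subunits of eIF2 and of its exchange factor eIF2B, 3 fell in ER-RNA and 1 in total RNA, with medians of -0.69 in ER-RNA and -0.48 in total RNA. Over all genes that passed, 8.25% were called down in ER-RNA and 7.45% in total RNA, and 1.12% up in ER-RNA and 2.32% in total RNA. EIF2B3 fell in both, to 0.385 of control in ER-RNA and 0.467 in total RNA. Its hypoxia signals of 5.79 in ER-RNA and 6.62 in total RNA lay below the array medians, so EIF2B3 passed the filter through the control arrays. EIF2B1 (0.490) and EIF2S1, the subunit that is phosphorylated (0.459), were called in ER-RNA and not in total RNA, a difference between the fractions that was not tested. EIF2B4 had log2 fold changes of -0.66 in both, EIF2S2 of -0.73 in ER-RNA and -0.46 in total RNA, and EIF2B2 of -0.38 and -0.33. EIF2B5 (-0.17 in ER-RNA and -0.08 in total RNA) and EIF2S3 (0.05 and 0.04) lay near 0.

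None of the phosphatase genes and DNAJC3, an inhibitor of the kinases, was called. PPP1R15B, the constitutive counterpart of PPP1R15A, had log2 fold changes of -0.36 in ER-RNA and -0.24 in total RNA. The catalytic subunits PPP1CA (-0.31 in ER-RNA and -0.20 in total RNA), PPP1CC (-0.26 and -0.01) and PPP1CB (-0.01 and 0.51) differed little in ER-RNA. DNAJC3 had -0.66 in total RNA and lay below the filter in ER-RNA. PPP1R15A was therefore the only gene of this arm that was called, in ER-RNA.

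Other genes known as ATF4 targets were mostly lower in hypoxia. Of 35 listed, 32 were measured, with CBS, GPT2 and CCPG1 not among the genes named alone by a probe set. The 32 had a median log2 fold change of -0.57 in ER-RNA and of -0.55 in total RNA, with 26 lower in ER-RNA, 24 lower in total RNA and 23 lower in both. In ER-RNA 7 fell and none rose, and in total RNA 12 fell and 1 rose. With the spread taken as the MAD, which is on a larger scale, 2 fell in ER-RNA and 3 in total RNA. Called down in both fractions were 6: ASNS, PSAT1, PSPH, MTHFD2, SLC7A11 and CTH.

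The genes of amino acid synthesis and folate metabolism were lower without exception. This division by role was made after the values had been seen. All 9, PCK2 included though it belongs to neither pathway, were lower in both fractions, and 5 were called in ER-RNA and 6 in total RNA. ASNS, which makes asparagine and is the classical ATF4 target, had log2 signals of 7.12 in hypoxia and 8.63 in control in ER-RNA, and 7.96 in hypoxia and 9.03 in control in total RNA, and so fell to 0.353 of control in ER-RNA and 0.476 in total RNA. PSAT1 of serine synthesis fell to 0.267 of control in ER-RNA and 0.328 in total RNA, and mitochondrial MTHFD2 to 0.383 in ER-RNA and 0.494 in total RNA. PHGDH, which catalyses the first step of serine synthesis, had log2 fold changes of -0.86 in ER-RNA and -0.47 in total RNA without a call.

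Among 6 amino acid transporters, SLC7A11, which imports cystine for glutathione synthesis, fell to 0.360 of control in ER-RNA and 0.341 in total RNA. SLC1A5 (0.491) and SLC7A5 (0.511) fell in total RNA, and SLC38A2 was the only transporter with a higher signal, by 0.27 in ER-RNA and 0.38 in total RNA. All 5 genes of tRNA charging and export were lower, with WARS1 (0.542 of control) and AARS1 (0.537) called in total RNA. Of the 5 secreted factors, 4 were higher in both fractions, and GDF15 was lower, with -0.43 in ER-RNA and -0.47 in total RNA. STC2 rose 1.83-fold in total RNA and had a log2 difference of 0.73 in ER-RNA. VEGFA had 0.38 in ER-RNA and 0.61 in total RNA without a call. NUPR1, a small chromatin protein induced by stress, fell to 0.602 of control in ER-RNA and had 0.15 in total RNA.

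**Figure D4:**
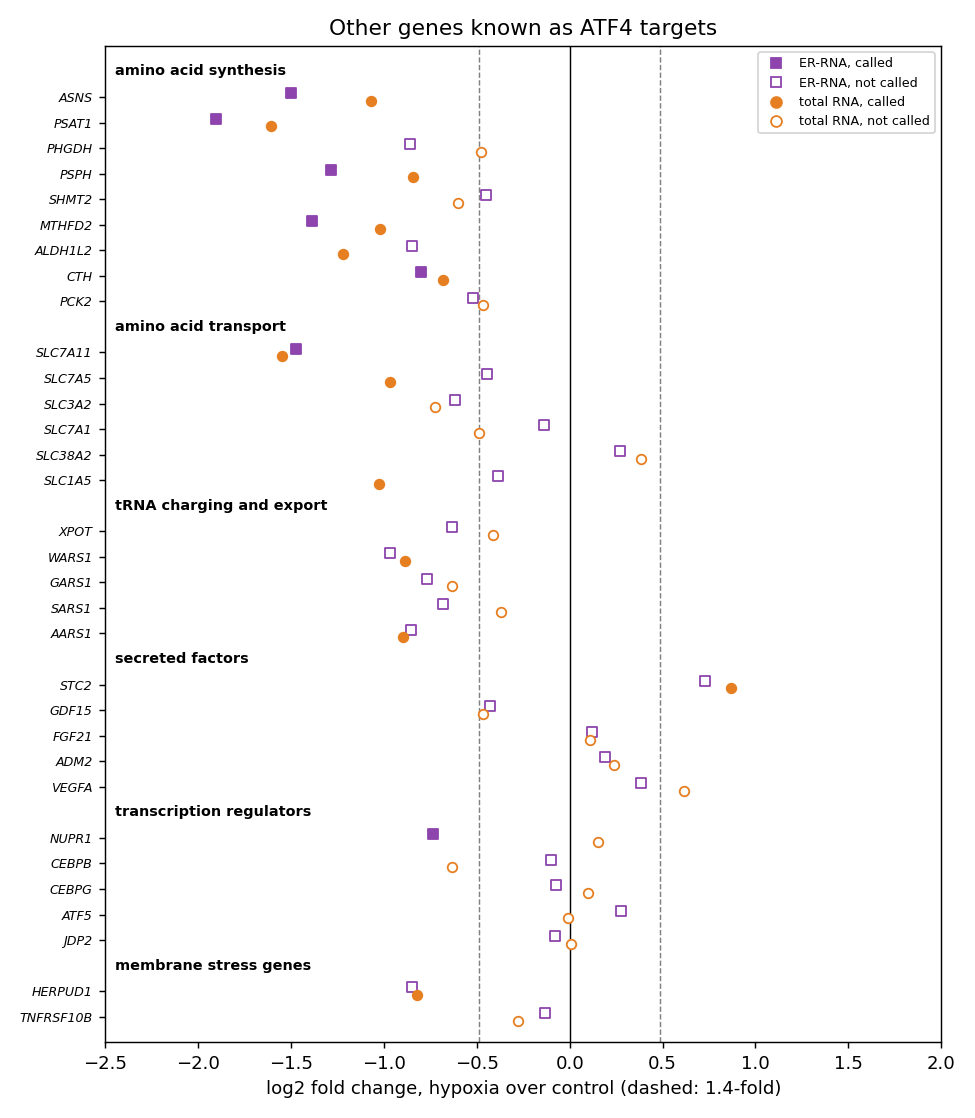
Log2 fold change (hypoxia over control) in ER-RNA (squares) and total RNA (circles) of the 32 measured genes known as ATF4 targets outside the 10, grouped by role, with filled symbols for called changes and dashed lines at a fold change of 1.4. All genes of amino acid synthesis and of tRNA charging lie left of 0, down to -1.90 for PSAT1 in ER-RNA, while STC2 reaches 0.87 in total RNA.

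Of 22 measured bZIP proteins that can pair with ATF4, ATF3 or DDIT3 or belong to the same families, none was called in ER-RNA, and FOSL1 alone was called in total RNA, where it rose 3.10-fold. Its ER-RNA difference was 0.59 on the log2 scale. CEBPB, the best known partner of ATF4 and DDIT3, had log2 fold changes of -0.10 in ER-RNA and -0.63 in total RNA, and CEBPG had -0.07 and 0.10. The medians of the 22 were 0.18 in ER-RNA and 0.13 in total RNA. Calls among all genes that passed were 1.12% up and 8.25% down in ER-RNA, and 2.32% up and 7.45% down in total RNA.

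Of the paralogs of the 10 genes, 10 of 11 were measured, and 1 was called. GGCT, which like the CHAC enzymes acts in glutathione breakdown, fell to 0.553 of control in ER-RNA and had -0.57 in total RNA on the log2 scale. SESN1 had -0.80 in ER-RNA and -0.43 in total RNA, and SESN3 had 0.14 and -0.11. TRIB2 had 0.20 in ER-RNA and 0.67 in total RNA, and TRIB1 -0.18 and -0.20. LRP8, the reelin receptor most like VLDLR, had -0.26 in ER-RNA and -0.61 in total RNA. ATF5 had 0.28 and -0.01, JDP2 had -0.08 and 0.01, and DDIT4L lay below the filter in both fractions.

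Glutathione genes beyond CHAC1 and CHAC2 went in both directions, with calls only among those that were lower. Of 13 measured, the CHAC genes, GGCT and SLC7A11 included, 8 were lower and 5 higher in ER-RNA, and 9 were lower and 4 higher in total RNA, while 7 fell in ER-RNA, 4 fell in total RNA and none rose. Those that fell include CHAC1 and CHAC2 in ER-RNA and CHAC1 in total RNA. For all genes that passed, the shares were 8.25% down and 1.12% up in ER-RNA, and 7.45% down and 2.32% up in total RNA. GCLM, the modifier subunit of the rate-limiting enzyme of glutathione synthesis, had log2 signals of 4.45 in hypoxia and 6.79 in control in ER-RNA, and 6.63 in hypoxia and 7.66 in control in total RNA, so that it fell to 0.197 of control in ER-RNA. Its -1.03 in total RNA was not called. The hypoxia signals of GCLM lay below the array medians in both fractions, so it passed the filter through the control arrays. Glutathione synthetase GSS fell to 0.491 of control in ER-RNA and 0.544 in total RNA, and glutathione reductase GSR to 0.509 and 0.513. GCLC, the catalytic subunit, had -0.70 in ER-RNA and -0.47 in total RNA without a call. The γ-glutamyltransferase family genes GGT5 (0.50 in ER-RNA and 0.31 in total RNA) and GGT7 (0.28 and 0.41), the 5-oxoprolinase OPLAH (0.35 and 0.06) and the peroxidase GPX1 (0.46 and 0.09) had higher signals without a call. GPX4 had 0.13 in ER-RNA and -0.03 in total RNA.

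Genes linked to DDIT3 in cell death and in ER oxidation moved in both directions. ERO1A, an ER oxidase that is also a HIF target, rose 2.02-fold at the ER and 2.84-fold in total RNA. BCL2L11 (BIM) fell to 0.585 of control in ER-RNA and 0.468 in total RNA, and BAK1 fell to 0.516 in total RNA. The death receptor TNFRSF10B had log2 fold changes of -0.13 in ER-RNA and -0.28 in total RNA, BBC3 had 0.32 and 0.35, and PMAIP1 had -0.36 and 0.12. TXNIP had 0.78 in ER-RNA and 0.67 in total RNA, BAX -0.28 and -0.23, MCL1 0.05 and 0.12, and BCL2 -0.24 in total RNA, with no call among them. TNFRSF10A lay below the filter in both fractions.

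In the mTORC1 pathway, on which DDIT4 and SESN2 act, 26 of 27 genes were measured. MTOR, the kinase itself, fell to 0.606 of control in ER-RNA and 0.468 in total RNA. MIOS (0.417) and SEH1L (0.523), both subunits of the GATOR2 complex that SESN2 binds, fell in ER-RNA, and their log2 fold changes of -0.43 and -0.61 in total RNA were not called. The GATOR2 subunits WDR24 (0.37 in ER-RNA and 0.14 in total RNA), WDR59 (-0.02 and 0.10) and SEC13 (-0.59 and -0.41) were not called. Of this list 3 of 25 that passed were called down in ER-RNA and 1 of 24 in total RNA. Among all genes that passed, these shares were 8.25% and 7.45%. The medians of the 26 were -0.11 in both fractions.

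The other branches of the unfolded protein response, which are run by ATF6 and ERN1, were lower in total RNA in all 16 genes measured, and 5 of them fell. Among all genes that passed the filter in total RNA, 55.7% were lower and 7.45% were called down. HSPA5 (BiP), the main ER chaperone, fell to 0.510 of control in total RNA, ATF6 to 0.511, PDIA4 to 0.485, HERPUD1 (also on the list of ATF4 targets) to 0.566 and DNAJB11 to 0.537. In ER-RNA DNAJB11 alone was called, at 0.368 of control, and HSPA5 had a log2 fold change of -0.94 with a z-score of -2.95. ERN1 had 0.12 in ER-RNA and -0.10 in total RNA.

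The HIF targets rose in both fractions. Of 23 core HIF targets, a list that holds none of the 10 genes, 18 rose in ER-RNA and 19 in total RNA, the same 18 in both, and none fell. By comparison, 1.12% of all genes that passed were called up in ER-RNA and 2.32% in total RNA. HILPDA, a lipid droplet protein, rose 5.33-fold at the ER and 7.41-fold in total RNA, and ENO2 of glycolysis 3.25-fold and 5.76-fold. PFKFB4 rose 2.21-fold at the ER and 4.28-fold in total RNA, and the collagen-linking enzyme LOX 2.55-fold and 4.07-fold. The list had a median log2 fold change of 1.14 in ER-RNA and of 1.37 in total RNA. VLDLR, with 1.45 in ER-RNA and 1.81 in total RNA, lay above both medians. DDIT4, with -0.28 in ER-RNA and -0.27 in total RNA, lay below the lowest values of that list, which were -0.18 in ER-RNA and 0.26 in total RNA.

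For the 8 genes kept in both fractions, the 3 genes with the most similar pair of log2 fold changes were sought among 10850 others, by Euclidean distance over the 4 arrays after each fraction was centred on its mean. Nearest to VLDLR were the histone gene H4C8 (1.43 in ER-RNA and 1.79 in total RNA), the adhesion gene JAM2 (1.52 and 1.83) and DIPK2A (1.33 and 1.64). Nearest to CHAC1 were PARP1, which acts in DNA repair (-1.08 in ER-RNA and -1.37 in total RNA), NOLC1 (-1.08 and -1.45) and H2BC3 (-1.13 and -1.40). PPP1R15A had ITGA5 (0.92 in ER-RNA and 0.51 in total RNA), NOL3 and TMSB4XP2 as its nearest genes, and SESN2 had ELFN2, FICD and PDGFRB, each higher in ER-RNA and lower in total RNA as SESN2 was.

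Of the other 4, ATF4 was nearest to OLFML2A, EFNB1 and AIPL1, DDIT3 to MT1G, BCL6 and SMS, TRIB3 to CEP63, MATK and KIF19, and DDIT4 to TMEM268, GABPB1 and SUV39H1. Distances were 0.00119 for ATF4 and OLFML2A and 0.146 for VLDLR and DIPK2A.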

How the data were processed

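HT1080 RNA was measured on 4 arrays, 1 for each fraction and condition. The deposited values are log2 signals that the authors normalized by RMA, with Partek 6.4 named beside RMA in the submitters' processing notes. The sources used here do not say if the fractions were normalized together. Gene names came from the platform annotation, with 19429 of the 19460 probe sets that name 1 gene matched to RefSeq. Calls used the thresholds of the methods on the whole table with R 4.3.3, a fold change over 1.4 and a z-score over 3. The methods fitted the spread to treatment and control separately and left out genes below the 50% quantile. As each group has 1 array, the SD here came from a loess curve (span 0.75, degree 2) of the SD of the hypoxia and control pair on its mean, over probe sets with at least 1 array of the pair above its 50% quantile, and calls can differ from the study's. The calling step was tested on simulated data, and limma 3.58.1 served the normalization alternatives. Motifs and plots used Python 3.11.15 and matplotlib 3.10.9. The 10 genes and the 13 gene lists were chosen with earlier results of these data known. Named by rule were all 10 genes on every array, the called genes of each list (up to 4, by largest change), every gene of lists of 11 or fewer, and the 3 nearest genes. Other list genes were named after their values were seen. No p-value was computed.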

Additional observations from a re-analysis of the deposited data

Results flagged for a closer look

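SESN2 moved in opposite directions in the fractions. Hypoxia minus control was 0.12 on the log2 scale in ER-RNA and -0.63 in total RNA, a difference of 0.75. It was marked because its only ER-RNA pair and its only total RNA pair went opposite ways, and the difference was not tested. Neither fold change was called. Under the 11 alternative settings the SESN2 log2 fold change stayed between 0.03 and 0.23 in ER-RNA and between -0.71 and -0.56 in total RNA. Only the normalization settings could alter it.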

How the results depend on the processing

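None of the 10 genes changed direction in either fraction under the 11 alternative settings of the calls. Only quantile normalization, median centring and loess within each pair could change it, and for ATF4 also the mean of its probe sets. The other settings change the filter, the SD or the threshold and leave the log2 fold changes as they are. Of the 220 combinations of gene, fraction and setting, 205 kept their side of the call rule. In ER-RNA, 1 gene was down instead of 2 with a 75% quantile filter, with both arrays required above the 50% quantile and with the scaled MAD, which lost CHAC2, CHAC2 and CHAC1. With the 75% filter CHAC2 and VLDLR passed in ER-RNA and the fitted SD was larger. There 1 gene was up instead of 2 with the 75% filter, which lost VLDLR, and with median centring, a fold threshold of 2, 1-gene probe sets only and the MAD, which each lost PPP1R15A, and 4 were up by fold change alone (ATF3 and DDIT3 added). In total RNA, 2 genes were down instead of 1 by fold change alone (SESN2 added) and with no filter (CHAC2 added), and 0 with the MAD. By fold change alone 3 were up instead of 1 (DDIT3 and PPP1R15A added). TRIB3, DDIT4 and, by the probe set used, ATF4 were called under no setting. The other ATF4 probe set, at 1.41-fold in total RNA, is past the fold threshold there and would be called up by fold change alone. The number of genes with a lower log2 fold change in ER-RNA than in total RNA was 2 to 4. With 1 mismatch allowed, TGATGNAA matched in 5 of the 10 promoters instead of 2, and in 44.1% of all promoters.

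Over all probe sets, the calls down in ER-RNA (1286), down in total RNA (1120), up in ER-RNA (273) and up in total RNA (574) became 692, 535, 133 and 246 with the 75% filter. They became 3381, 2887, 1528 and 1623 by fold change alone, 2077, 1789, 1115 and 1718 with no filter, and 332, 280, 79 and 203 with the MAD. The MAD is on a larger scale than the fitted SD, so its z-score rule is stricter. A fold threshold of 2 gave 504 down and 300 up in total RNA and 164 up in ER-RNA, and fitting 1-gene probe sets gave 145 up in ER-RNA and 322 up in total RNA. The other ATF4 targets called down ranged over the settings between 2 and 16 in ER-RNA and between 3 and 17 in total RNA. No paired analysis was possible because each group has 1 array, and no array could be left out for the same reason. Signals below the array median limit what can be said of CHAC2 and ATF3 in total RNA. Hypoxia signals below the median also limit the ratios of EIF2B3 and GCLM.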

Other observations

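ATF3 and PPP1R15A also belong to the genes that growth factors and stress induce at once, so the immediate early genes were looked at. Of 21 measured, 18 were higher in hypoxia in ER-RNA and 16 in total RNA, with medians of 0.25 in ER-RNA and 0.07 in total RNA, and FOSL1 alone was called, in total RNA. Of all 18417 genes, 10180 were higher in ER-RNA and 9786 in total RNA, with medians of 0.06 and 0.03. DUSP1, a phosphatase of MAP kinases, had log2 fold changes of 0.52 in ER-RNA and 0.33 in total RNA, and KLF6 had 0.46 and 0.55. DUSP4 was the lowest, with -0.50 in ER-RNA and -0.42 in total RNA.

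SESN2 is also a p53 target, and none of 15 measured p53 targets was called in either fraction. Calls are uncommon among all genes that passed, with 8.25% down and 1.12% up in ER-RNA. In total RNA these shares were 7.45% and 2.32%, so a short list without a call says little. CDKN1A (p21) had log2 fold changes of 0.09 in ER-RNA and -0.35 in total RNA, and MDM2 had -0.50 and -0.03. GADD45B had the highest value in ER-RNA, 0.71, with 0.22 in total RNA.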
